A study of Saccharomyces cerevisiae with 30 samples.

Results

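The 18S rRNA of mature 40S ribosomal subunits of budding yeast was mapped with dimethyl sulfate (DMS) in 3 replicates. Every A and C of the 1800 nucleotides of 18S whose effective depth reached 1000 in each of the 6 libraries was included, which gave 811 of 831 (470 of 483 A and 341 of 348 C). Effective depth is the deposited number of reads at a nucleotide that could score as mutated or unmutated. The series also holds pre-40S particles, the precursors of the subunit, purified through a tag on the assembly factor Rio2 from wild-type or mutant cells, and these are not used here. Of the 30 libraries of the series, 6 are mature 40S: each of 3 biological replicates has a library treated with 1% DMS at 30 °C for 5 min and its own untreated control (NC). All 6 came from cells grown to mid-log phase in YPD, a rich medium; the labels give neither a genotype for the mature subunits nor how they were purified.

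DMS is a small alkylating reagent that methylates the base-pairing face of A and C when that face is not held in a pair or covered by protein. In DMS-MaPseq the reverse transcriptase reads through a methylated base and leaves a mutation in the sequencing read, so a higher mutation rate after treatment marks an accessible base. In the 40S subunit the 18S rRNA folds into a body with a shoulder and a platform, a head joined to the body by a neck helix, and a 3' minor domain whose long helix 44 (h44) runs down the face that meets the large subunit and carries the decoding centre.

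The libraries were deep and carried the sequence marks of mature 18S. The median effective depth over 18S lay between 5777 and 8036 per library, and total mutations between 47894 and 139566. Reads over the first part of internal transcribed spacer 1, a piece removed from mature rRNA, had 0.00234 to 0.0128 times the depth of 18S. U1191 of the finished rRNA bears a heavily modified uridine, and it was mutated in 76.8% to 83.8% of reads in all 6 libraries, treated or not. The nucleotides under the depth minimum lay at 1 to 2, 1064 to 1065, 1188 to 1192, 1282 to 1300 and 1780 to 1800, so the loop of helix 45 and the surroundings of U1191 are not covered.

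A nucleotide is called open below when its mutation rate was higher with DMS than in the paired NC library in an edgeR quasi-likelihood test at an adjusted p under 0.05. The sequences that hold the most reactive nucleotides and the densest open stretches are printed first, as read from the deposited profiles, 5′ to 3′, with every open A and C in capitals. Positions are counted from the 5′ end of 18S, which is transcribed from the rDNA repeats of chromosome XII.
C38 to A47 and flanks, 33 to 52: ugucuCAAAgAuuAAgccau
Around C139, 123 to 144: gauaguuCCuuuACuaCauggu
Shoulder, 505 to 560: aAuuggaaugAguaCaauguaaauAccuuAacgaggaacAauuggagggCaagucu
A807 to A814 and flanks, 802 to 819: gAauaAuAgAAuAggacg
A929 to C934 and flanks, 924 to 939: agacuAACuaCugcgA
Platform, 965 to 1010: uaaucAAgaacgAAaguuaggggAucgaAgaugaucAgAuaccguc
Around A1139, 1129 to 1149: ugaAacuuAaAggaauugacg
Head, 1205 to 1254: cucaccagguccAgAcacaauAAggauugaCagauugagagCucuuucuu
Span that holds h44, 1640 to 1760: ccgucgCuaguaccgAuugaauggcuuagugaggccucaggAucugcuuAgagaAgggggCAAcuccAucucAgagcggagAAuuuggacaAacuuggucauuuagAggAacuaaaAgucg

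The mutation rate was higher with DMS at A and C, with smaller differences at G and U. Averaged over the 470 A, the rate with DMS was 0.659%, 1.00% and 0.886% in replicates 1 to 3, against 0.417%, 0.543% and 0.562% in the NC libraries. The difference at A was 0.342 ± 0.110 percentage points (SD, n = 3), positive in 3 of 3 pairs. At C it was 0.176 ± 0.0241 percentage points, with DMS rates of 0.536%, 0.794% and 0.761% against 0.372%, 0.590% and 0.600%. At G, whose pairing face DMS does not mark in this assay, the difference was 0.0442 ± 0.0108, and at U 0.0145 ± 0.0152. With 3 pairs, a two-sided exact sign-flip test cannot give a p below 0.25, and it gave 0.25 for A, C and G and 0.5 for U (adjusted over the 4 bases 0.333, 0.333, 0.333 and 0.5). The differences at A, C and G each exceeded their SD between replicates, so that criterion does not set A and C apart from G; they differ in size.

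Most A and C of the finished subunit were not open. Of the 811, 142 were open (17.5%): 102 of 470 A (21.7%) and 40 of 341 C (11.7%). The same fit called 7 of 940 G and U (0.745%), the background measured the same way, and 149 of all 1751 nucleotides (8.51%). That background was uneven, with 6 of 444 G and 1 of 496 U called. No A or C was called lower with DMS in the edgeR fit, in DESeq2 or in limma, and in edgeR at an unadjusted p under 0.05 235 were higher and 7 lower. Under the alternatives, 2 were called lower with TMM factors, 2 with A and C alone in the fit, and 1 each at a depth of at least 2000, without replicate 1 and without replicate 2. All 142 had a higher rate with DMS in 3 of 3 pairs, as did 371 of all 811 tested (45.7%) and 191 of 940 G and U (20.3%). At 126 of the 142 the 3 treated libraries lay above all 3 untreated ones, and of all 811 tested, 204 (25.2%) were separated in that way. The calls came from these same pairs, so both counts follow in part from the call. The median fold change of the open nucleotides was 3.00, from 1.71 to 55.5. The count depends on the pairing and on 1 library pair: 36 were open without the replicate block and 46 without replicate 3. The replicates are separate biological samples, and reads carry no molecular identifiers, so depth covers counting error only.

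For comparison between replicates, the NC rate was subtracted from the DMS rate and the result divided by a scale of that replicate, which gave the reactivity. The scale was the average over A and C whose subtracted rate lay from percentile 90 to percentile 98, and came to 0.841, 1.33 and 1.02 percentage points. On this scale 42 open nucleotides had a mean reactivity of at least 1, 76 lay between 0.3 and 1, and 24 under 0.3. No A or C that was not open reached 1. The highest of those was A68, at a reactivity of 0.771 and an adjusted p of 0.0754 (edgeR). At the threshold, A1749, A1556 and C31 were the last ones inside, with adjusted p of 0.0385, 0.0440 and 0.0440, and A605, A606 and A180 the first ones outside, with 0.0519, 0.0537 and 0.0538.

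**Figure D1:**
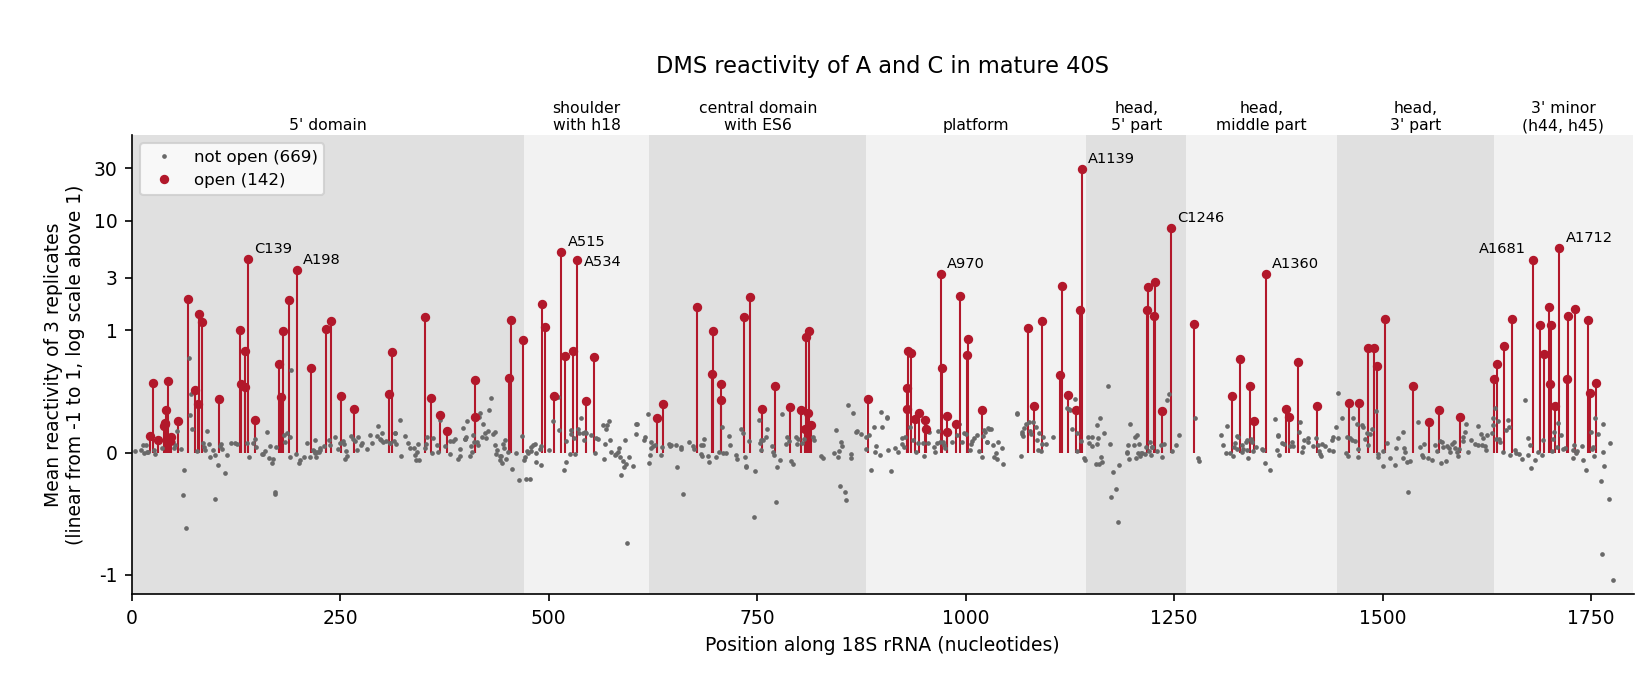
Mean reactivity of the 3 replicates (y axis, without unit; linear from -1 to 1 and logarithmic above) at each tested A and C along 18S (x axis, nucleotides); red stems are the 142 open nucleotides and grey points the others, on shaded regions. The open nucleotides are spread over all 8 regions, and A1139 stands alone at 29.3.

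A single adenine carried much of the signal. A1139, just 5′ of the neck helix that joins the head to the body, was mutated in 26.2%, 36.0% and 31.9% of reads with DMS and in 0.710%, 0.399% and 0.572% without. The treated and untreated libraries did not overlap, and the rate rose by 5.80 ± 0.28 on the log2 scale (SE, adjusted p = 1.67e-07, edgeR). Its reactivity was 29.3 ± 2.16 (SD, n = 3). A1139 alone held 12.9% of the positive subtracted rate over all tested A and C, the 10 most reactive nucleotides 31.9%, the top 25 44.5%, the top 100 70.6% and the open set 75.3%. Of its neighbours, A1137 had a reactivity of 1.53 ± 0.341 and A1132 of 0.35, both open, while the adenine between A1137 and A1139 was not open.

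The next nucleotide was C1246 in the head, at a reactivity of 8.50 ± 2.68. Its rate with DMS was 4.89%, 14.1% and 11.8%, against 0.345%, 0.986% and 1.34% untreated. The groups did not overlap, but replicate 1 was lower than the other two in both treatments, and its reactivity of 5.41 lay below 9.85 and 10.2. C1246 closes a cluster of open nucleotides in the 5′ part of the head, made up of A1217, A1219, A1226, A1227, C1235 and C1246. A1227 had a reactivity of 2.78 ± 0.0647 from DMS rates of 2.40%, 3.77% and 3.04% and NC rates of 0.105%, 0.106% and 0.131%. A1219 had 2.48 ± 0.0943, A1217 1.53 ± 0.333 and A1226 1.36. These 6 were the only open nucleotides among the 56 tested A and C of the 5′ part of the head, from 1145 to 1264.

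In the shoulder, A515 and A534 were the most reactive. A515 was mutated in 5.15%, 7.12% and 5.65% of reads with DMS against 0.496%, 0.567% and 0.611% without, a reactivity of 5.14 ± 0.348. A534 reached 3.96%, 6.10% and 4.58% against 0.0812%, 0.331% and 0.25%, a reactivity of 4.40 ± 0.188. At both, the lowest treated library stood above the highest untreated one by several-fold. C519, A529, A544, C554 and A506 were open between them or close by, with reactivities from 0.42 to 0.84.

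In the span that holds h44, from 1640 to 1760, A1712 and A1681 were the most reactive. A1712 had DMS rates of 6.02%, 7.45% and 5.57% and NC rates of 0.402%, 0.507% and 0.647%, a reactivity of 5.58 ± 0.975. A1681 had 4.03%, 6.91% and 5.26% against 0.373%, 0.771% and 0.939%, a reactivity of 4.40 ± 0.20. Neither overlapped between treated and untreated libraries. Of the 58 tested A and C from 1640 to 1760, a window chosen after its values were seen, 16 were open. Of all tested A and C, 17.5% were. Leaving out each replicate in turn, C1646, A1655, A1681, C1700, A1712, A1721, A1722 and A1731 were open every time. The rest of the 16 were not. At A1689, A1694, A1701, A1707 and A1749 the treated and untreated libraries overlapped. In the 3′ minor domain 9 nucleotides had a reactivity of at least 1, among them C1700 (1.63 ± 0.0917), A1731 (1.56 ± 0.169) and A1722 (1.36 ± 0.125).

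The 5′ domain held 11 nucleotides with a reactivity of at least 1. C139 had DMS rates of 4.34%, 7.06% and 4.97% against 0.599%, 0.685% and 0.863%, a reactivity of 4.43 ± 0.388. Within 9 nucleotides 5′ of it, C130 (1.00), C131 (0.56), A135 (0.54) and C136 (0.84) were open too. A198 had a reactivity of 3.56 ± 1.03, A67 of 1.92 ± 0.576, A188 of 1.88 ± 0.546 and A80 of 1.42 ± 0.388. Of these, A198 and A67 were not called without replicate 3 or without the replicate block, and A188 not without the block.

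The region counted here as platform runs from 881 to 1144, and so takes in A1139 at its 3′ end. In it A970 was next after A1139, with DMS rates of 3.24%, 4.65% and 3.78% against 0.659%, 0.330% and 0.261% (reactivity 3.26 ± 0.189). A1116 (2.56 ± 0.176) and A993 (2.05 ± 0.267) came next. A1116 had 3.27%, 3.82% and 3.01% with DMS and 1.23%, 0.520% and 0.199% without, so its untreated rate varied between replicates but the groups did not overlap. The central domain with expansion segment 6, an insertion found in eukaryotic 18S, had C741 (2.03 ± 0.911) and A678 (1.62 ± 0.194) at the top. C741 had an effective depth from 1979 to 4945. Without replicate 3, A970, A1116, C741 and A1137 were no longer called, and without the block C1246, A1116, A993, C1700, A678 and A1137 were not.

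**Figure D2:**
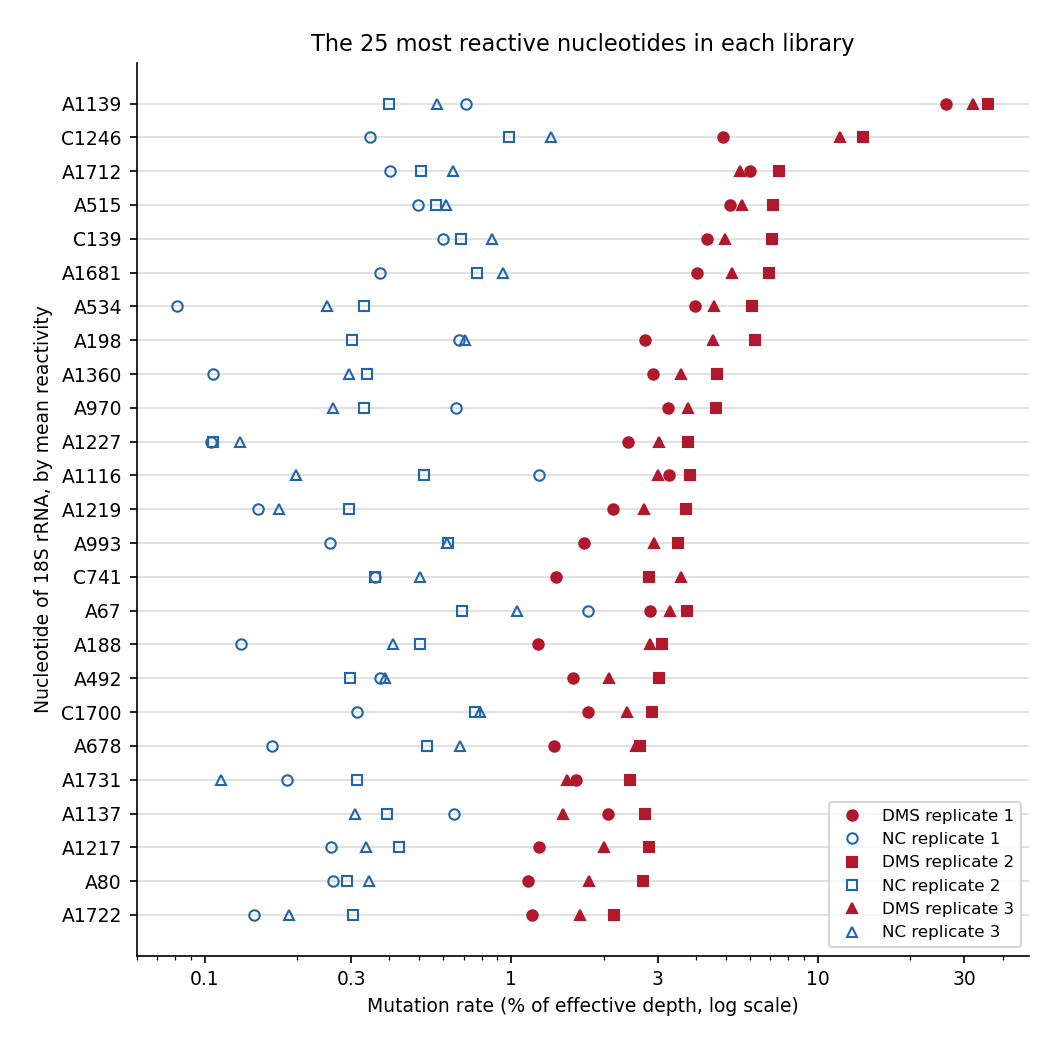
Mutation rate (x axis, percent of effective depth, log scale) of the 25 most reactive open nucleotides (y axis) in each of the 3 DMS libraries (filled red) and 3 NC libraries (hollow blue). In all 25 the treated libraries lie to the right of the untreated ones, from A1139 at 26.2% or more to A1722 at 1.17% or more.

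The agreement of the replicates is given as a description across nucleotides that share libraries and depth. Over the 811 A and C, Pearson's r of reactivity was 0.933 for replicates 1 and 2, 0.933 for 1 and 3 and 0.974 for 2 and 3. A1139 decides much of that: without it r was 0.787, 0.763 and 0.919, and Spearman's rho over all 811 was 0.456, 0.423 and 0.422. The calls were made from these same 3 pairs, so a split into open and not open fixes much of the next values and adds no evidence on reproducibility. Among the other 141 open nucleotides r was 0.911, 0.891 and 0.976. Among the 669 that were not open it was 0.144, 0.110 and 0.0492, and at G and U 0.120, 0.0721 and 0.236. Of the 100 most reactive A and C in each replicate, 76, 74 and 77 were shared by pairs of replicates and 70 by all 3, of which 69 were open; the top 10 lists of the 3 replicates shared 9.

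The SD over the 3 replicates was larger at the more reactive nucleotides. Its median was 0.270 for open nucleotides with a reactivity of at least 1, 0.138 between 0.3 and 1, and 0.0769 under 0.3. Single nucleotides departed from that order: A1360 had reactivities of 3.32, 3.29 and 3.22, and C1235 had 0.194, 0.663 and 0.170. Replicate 1 stood apart from the other two before subtraction. The log2 rates of all 1751 nucleotides correlated at 0.560 and 0.532 between replicate 1 and the others in the DMS libraries and at 0.471 and 0.469 in the NC libraries, against 0.942 and 0.929 between replicates 2 and 3. The difference was largest at U, where the mean untreated rate was 0.368% in replicate 1 against 1.36% and 1.39%. Without replicate 1, 156 A and C were open, of which 136 were among the 142. Leaving out each replicate in turn, 46 were open every time, among them A1139, C1246, A1712, A515, C139, A1681 and A534.

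**Figure D3:**
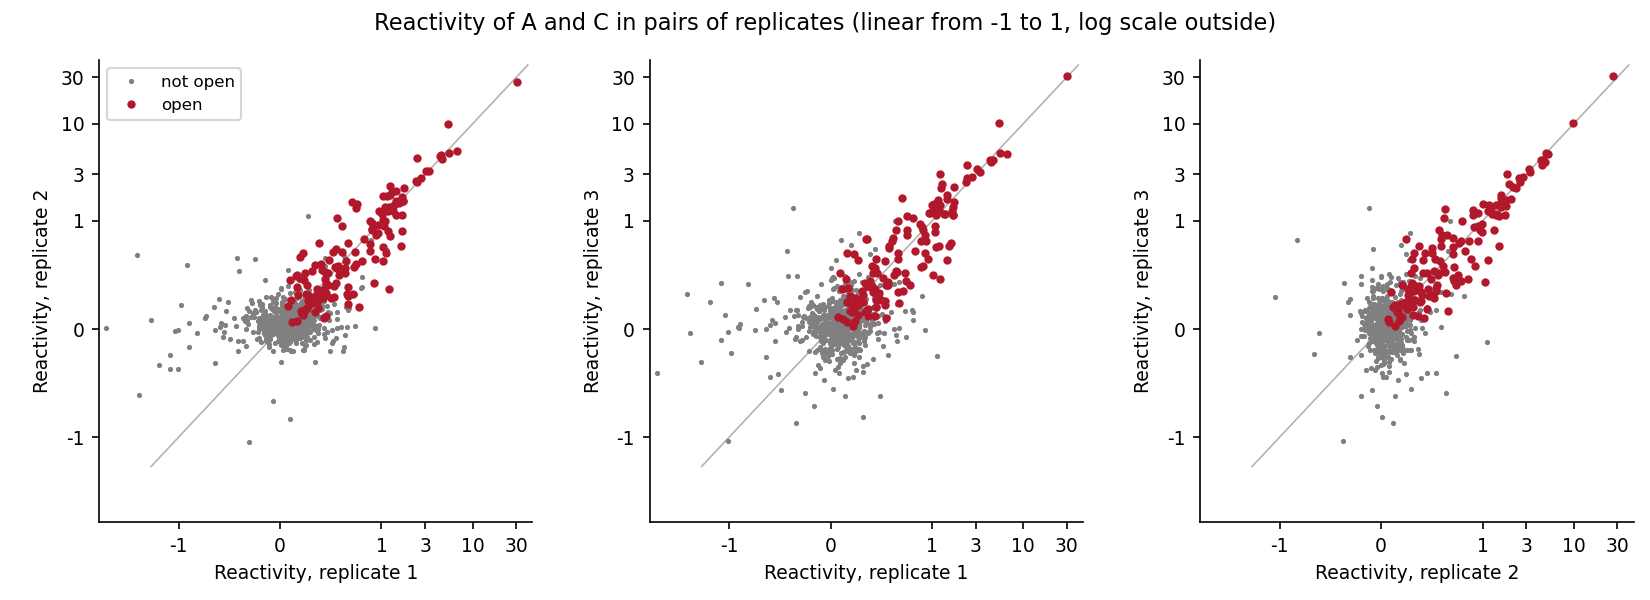
Reactivity of each tested A and C in one replicate (x axis) against another (y axis) for the 3 pairs of replicates; both axes have no unit, are linear from -1 to 1 and logarithmic outside, red points are open and grey points are not. Open nucleotides were called from the same replicates, so their place along the line of equal values follows in part from the call; the others form a cloud around 0, wider along the axis of replicate 1.

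The share of open nucleotides differed between the regions of 18S, as a description. It was 25.4% (18 of 71) in the 3′ minor domain, 22.0% (27 of 123) in the platform and 19.6% (44 of 224) in the 5′ domain, against 17.5% of all tested A and C. The head had 10.7% (6 of 56) in its 5′ part, 14.5% (10 of 69) in the middle and 11.4% (10 of 88) in its 3′ part. The shoulder had 12% (9 of 75) and the central domain 17.1% (18 of 105). These shares pool A and C, and the balance of A and C by region was not examined. Share and reactivity did not rank the regions alike. The 5′ part of the head, lowest by share, had a mean reactivity of 0.323, 0.399 and 0.297 in replicates 1 to 3. Over all tested A and C it was 0.249, 0.265 and 0.251. Long tracts held no open nucleotide: no A or C passed the test over 77 nucleotides between A1139 and A1217 (38 tested, with 5 positions under the depth minimum). The next longest were 75 nucleotides between C554 and A630 (37 tested), 68 between A814 and C883 (22 tested) and 54 between A1020 and C1075 (23 tested). The tract between C554 and A630 includes the loop of helix 18, which lines the decoding site, and is shown for contrast with the printed stretches above. It also holds A605 and A606, which missed the threshold narrowly (adjusted p of 0.0519 and 0.0537, edgeR). Its length thus depends on the threshold.
Between C554 and A630, 555 to 629: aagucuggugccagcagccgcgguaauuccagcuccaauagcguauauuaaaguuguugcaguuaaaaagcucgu

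Open nucleotides were mostly scattered. When neighbours no more than 3 positions apart were joined, the 142 formed 102 groups, of which 76 were single nucleotides, 23 held 2 or 3 and 3 held at least 4. The last 3 were picked for their open nucleotides, so the counts open within them are largely fixed by that choice. Whether the grouping differs from a random placement was not tested. From C38 to A47 in the 5′ domain all 7 tested A and C were open, all of them weakly, from 0.0908 to 0.583 with A43 the highest. From A807 to A814 in the central domain all 5 were open, with A812 (0.993) and A809 (0.95) above A811 (0.32), A814 (0.23) and A807 (0.19). From A929 to C934 in the platform 4 of 5 were open, from 0.353 to 0.829 with C931 the highest. The stretches thinned in other settings: without replicate 3, 3 of the first, 3 of the second and 1 of the third were called, and without the block 5, 3 and 1.

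The 18S letters alone, folded in windows of 150 nucleotides with RNAplfold, gave each base a probability of being unpaired, a measure the calls did not use. The prediction knows neither proteins nor distant pairs. Among A and C with a predicted unpaired probability of at least 0.8, 69 of 219 were open (31.5%), against 55 of 366 (15%) from 0.2 to 0.8 and 18 of 226 (7.96%) at 0.2 or less. Of the 219, 181 were A, but of the 226 only 78, so these shares also carry the difference between A and C. At A alone, in the same order, 52 of 181, 38 of 211 and 12 of 78 were open. At C alone it was 17 of 38, 17 of 155 and 6 of 148. As a description, the probability ranked an open above a not open nucleotide in 0.690 of all such pairs. Most bases predicted as unpaired were thus not open, and C139, the fifth most reactive nucleotide, had a predicted probability of 0.0237.

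The prediction held 10 hairpins with loops of 3 to 9 bases closed by at least 4 stacked pairs. In their loops 7 of 22 tested A and C were open, with a mean reactivity of 0.679, 0.606 and 0.525 in the 3 replicates, and in their stems 9 of 54, with 0.0450, 0.160 and 0.0639. Set beside the 17.5% of all tested A and C, the open share was 31.8% in the loops and 16.7% in the stems. These shares mix the bases, since the loops held 16 A and 6 C and the stems 24 A and 30 C. At A, 5 of 16 were open in the loops and 8 of 24 in the stems, beside 102 of all 470. At C, 2 of 6 and 1 of 30 were open, beside 40 of all 341. Without replicate 3, 4 loop bases and 3 stem bases were called, and without the replicate block 2 and 3. The 7 below, with the predicted loop in capitals, show loops that were open and loops that were not.
A483 to U504: acagggcccAUUCgggucuugu
G1354 to U1369: gcuagcAUUUgcuggu
G1498 to C1509: ggccGAGAgguc
G1695 to C1706: ggggGCAAcucc
A323 to U345: augguaggAUAGUGGccuaccau
A391 to U406: agccUGAGAAACggcu
G1588 to U1608: gcgcaaguCAUCAgcuugcgu

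The open loops were short. In the shoulder hairpin from A483 to U504, both tested loop bases were open, A492 with a reactivity of 1.72 ± 0.305 and C495 with 1.08, and none of 7 in the stem; C495 was not called without replicate 2, without replicate 3 or without the block. In the head hairpin from G1354 to U1369, A1360 was the one tested loop base and reached 3.27 ± 0.0537, from DMS rates of 2.90%, 4.70% and 3.57% against 0.107%, 0.339% and 0.295%. None of its 4 tested stem bases was open. Both remaining open loops had the letters GNNA. In the loop at the tip of h44, C1700 (1.63), A1701 (0.562) and A1702 (1.13) were all open; without replicate 3 C1700 alone was called, and without the block none. In the loop from G1502 to A1505 in the head, A1503 was open with a reactivity of 1.28, while A1505, the last base of the loop, had 0.0795 and was not; A1503 was not called without the block.

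Other predicted loops held no base that passed the test. None of 2 tested bases was open in the loop from A331 to G337, with 0.0755 and 0.0385 at A331 and A333. None of 5 was open from U395 to C402, where C402 was the highest at 0.262, and none of 4 from C1596 to A1600, where A1600 was the highest at 0.230. In the predicted hairpin from G63 to C79 the loop bases C70, A71 and A72 were not called, at 0.311, 0.483 and 0.189. In its stem A67 (1.92), A76 (0.509) and C79 (0.397) were called and A65 (-0.621), A68 (0.771) and A78 (0.0154) were not, so the ranges of loop and stem overlapped. The stretch from A807 to A814 lies in a predicted stem too, and these 5 with the 3 of the hairpin from G63 to C79 and A1593 make up all 9 open stem bases. 

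**Figure D4:**
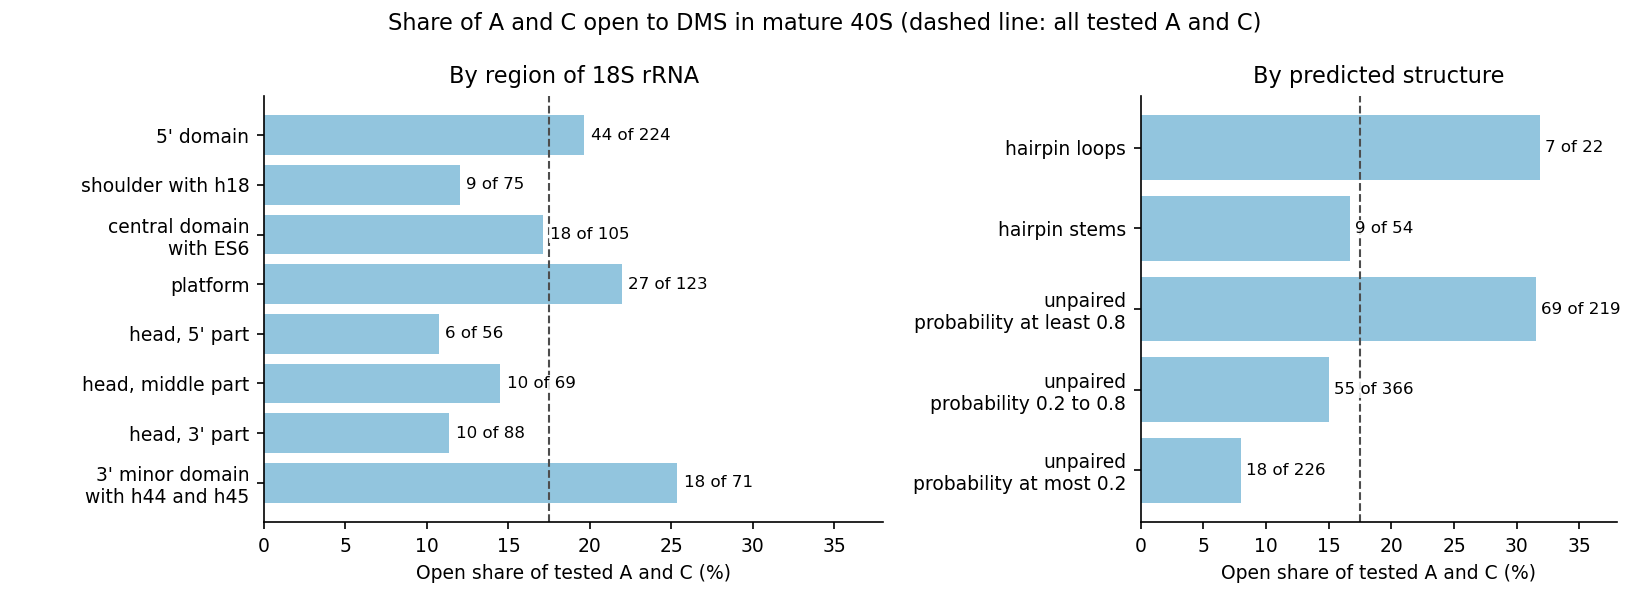
Share of tested A and C that were open (x axis, percent) in the 8 regions of 18S (left) and by predicted structure (right), with counts beside the bars and a dashed line at 17.5% for all tested A and C. The 3′ minor domain is highest among regions at 25.4%, and the share falls from 31.5% to 7.96% as the predicted unpaired probability falls. A and C are pooled in every bar. The balance of A and C differs between the bars by predicted structure and was not examined for the bars by region.

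The bases on either side in the sequence went with the share at C. Of all tested C, 11.7% were open. Of C followed by C, 3 of 72 were open (4.17%), and of C followed by G, 4 of 75 (5.33%), against 18 of 91 (19.8%) before A and 15 of 103 (14.6%) before U. Of C preceded by C, 3 of 72 were open too (4.17%), against 14 of 84 (16.7%) after A, 11 of 88 (12.5%) after G and 12 of 97 (12.4%) after U. The median predicted unpaired probability also differed, from 0.142 for C before C to 0.335 for C before A, and its part in the shares was not tested. At A the shares were closer, from 16.9% (14 of 83) before C to 23.9% (28 of 117) before G.

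Of the nucleotides that carry a natural base or ribose modification in yeast 18S, 15 are A or C, and 13 of them were tested. In the edgeR fit 0 of the 13 were open (the background is 17.5% of A and C). DESeq2 and limma called 0 too, and 2 were higher at an unadjusted p under 0.05 in edgeR. A1781 and A1782 of helix 45, each carrying 2 methyl groups on the base, fell under the depth minimum and were mutated with and without DMS, A1781 in 4.73% to 10.4% of reads with DMS and in 6.41% to 8.79% without. A619, a ribose-methylated adenine, had the highest untreated rate among the tested modified A, at 4.04%, 3.73% and 4.03%, with 4.82%, 3.75% and 4.02% after treatment. C1280, an acetylated cytosine, had 1.70%, 3.55% and 3.65% without DMS and 1.48%, 4.40% and 3.05% with it. At these high untreated rates the reactivity varied in sign between replicates, as C1280 and C1773 show with a difference that was not positive in all pairs. The 10 other ribose-methylated A and C had mean reactivities from -0.0208 at A100 to 0.255 at C1639.

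At the sites where mRNA and tRNA bind, 3 of 5 listed nucleotides were open, against 17.5% of all tested A and C. None of the 3 was called without replicate 3 or without the replicate block, and A1756 was not called without replicate 2 either. C1274 in helix 34 near the A site had DMS rates of 1.37%, 3.09% and 2.49% against 0.548%, 1.42% and 1.26%, a reactivity of 1.15 ± 0.148 (adjusted p = 0.00549, edgeR). C1637, the P-site cytosine at the base of h44, had 0.957%, 2.04% and 1.69% against 0.211%, 1.08% and 1.11%, a reactivity of 0.729 ± 0.155 (adjusted p = 0.0207). At both, replicate 1 was lowest in both treatments, so the groups overlapped while every pair rose. Of the adenines of the decoding centre, A1756 had 1.03%, 1.25% and 1.03% against 0.589%, 0.309% and 0.547% and was open (0.568 ± 0.126, adjusted p = 0.0128). Its neighbour A1755 had 0.900%, 1.07% and 0.981% against 0.450%, 0.757% and 0.903% and was not called (0.282 ± 0.233, adjusted p = 0.281). The difference between the 2 adenines was not tested. A1576, next to the methylated guanine that lines the P site, had 0.150%, 0.116% and 0.173% against 0.227%, 0.165% and 0.263%, lower with DMS in 3 of 3 pairs without passing the test (adjusted p = 0.404).

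**Figure D5:**
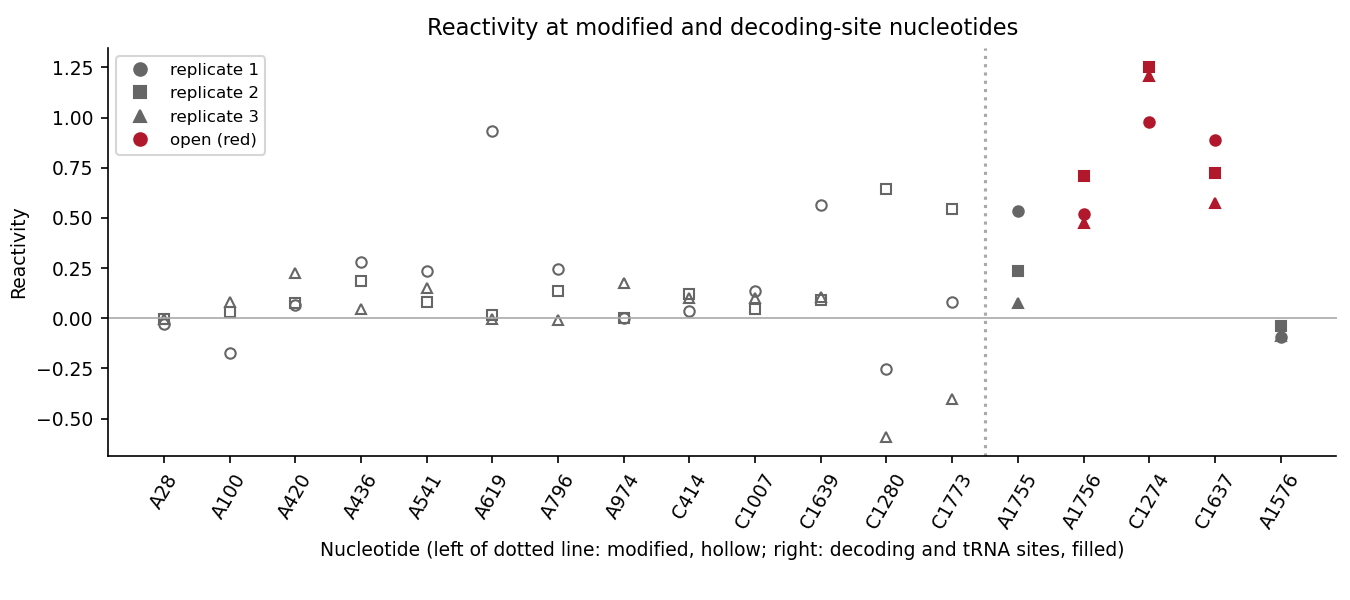
Reactivity (y axis, without unit) in the 3 replicates at the tested modified nucleotides (hollow, left of the dotted line) and at the nucleotides of the decoding and tRNA sites (filled, right); red marks open nucleotides. A1756, C1274 and C1637 are above 0.47 in every replicate, while A619, C1280 and C1773 are spread widely between replicates.

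The normalized accessibility that the authors deposited ranked the nucleotides in nearly the same order. Its Spearman correlation with the reactivity above was 0.969, 0.973 and 0.974 in the 3 replicates, across 811 nucleotides. Pearson's r without A1139 was 0.887, 0.992 and 0.987. Both measures come from the same libraries, so their likeness is not independent evidence. The deposited signal lists 206, 213 and 259 of the 811 at 0 in replicates 1 to 3, and 0 of the 142 open nucleotides. The open nucleotides rose with DMS in every pair, so this is a count of listed values rather than a test.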

How the data were processed

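Per the labels, mature 40S rRNA was extracted with phenol and chloroform and read by DMS-MaPseq. The deposited profiles give counts of mutations, read depth and effective depth at each position, 1 library a file, per the file headers; the mutation rate, a fraction, is mutations over effective depth as the authors computed it, and recomputed rates differed by at most 5e-07. The deposited table of normalized signal, with unstated scale, was used only as an alternative and for ranks. Aligner, counting software and filters are not given in the sources used here.

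Mutation counts of the 1751 nucleotides of 18S whose effective depth reached 1000 in each library were fitted in edgeR 4.0.16 (R 4.3.3; quasi-likelihood F test, robust dispersion, offset of log effective depth) with terms for replicate and treatment, and p-values were adjusted by Benjamini-Hochberg over all of them. Steps were tested on simulated data. The counts simulated for the edgeR fit held no replicate effect, so they do not bear on the choice of a replicate block. The pairing comes from the series' design text: each treated sample has its own untreated control. Deviations of same-numbered libraries from their group means correlated at 0.799, 0.546 and 0.608; DMS 2 with NC 3 gave 0.599, as did DMS 3 with NC 2. Alternatives were limma 3.58.1 on log2(rate + 0.001), with the rate as a fraction, DESeq2 1.42.0, other scalings and depth minimums, no replicate block and each replicate left out. Pairing was predicted with ViennaRNA 2.7.2 (window 150, span 100; hairpin pairs at a probability of at least 0.7).

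The nucleotides named first are the 25 most reactive among those open with a positive difference in all 3 pairs, then those of a list of modified and functional sites, the bases of printed hairpin loops, and stretches of at least 4 open nucleotides no more than 3 positions apart. The other printed windows, and other nucleotides named in them, were chosen after their values were seen. Members and lists were chosen with earlier results of these data known.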

Additional observations from a re-analysis of the deposited data

How the results depend on the processing

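Against 142 open A and C and 7 open G and U, the fit without the replicate block gave 36 and 0, with all of the 36 among the 142. At G and U edgeR gave 35 higher and 6 lower at an unadjusted p under 0.05 with the block. Of these, G had 31 higher and 1 lower, and U had 4 higher and 5 lower. Leaving out 1 replicate gave 46 to 156 A and C (46 without replicate 3, 106 without replicate 2) and 0 to 11 G and U. At G and U DESeq2 gave 2, limma 4 and TMM factors 3. At A and C these gave 101, 128 and 111, and the other settings 124 to 182, all within 1.5 times of the main count. TMM factors, which assume that most nucleotides are unaffected, moved the median log2 change of all nucleotides from 0.15 to -0.04. All 142 kept their direction in each setting that tested them, and at a depth of at least 2000 137 of 137 did. They were called for a higher rate with DMS and rose in every pair of these same libraries. The kept direction was thus largely fixed by the call and is no evidence of robustness. In every setting run, 29 stayed called. The median over positions in place of the mean gave a difference of 0.121 percentage points at A and 0.0774 at C. The mean r between replicates of 0.946 became 0.920 with a scale for each base, 0.977 with the deposited signal and, in 2 alternatives chosen after seeing the data, 0.823 without A1139 and 0.433 as Spearman's rho. A scale for each base multiplied the reactivity of A by about 0.804 and that of C by 1.33. Nucleotides under a depth of 1000 were not judged, and the smallest change called at A and C was 1.71-fold, so an uncalled nucleotide was not detectably open at this depth and spread, which does not show that it was closed.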

Other observations

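Among the G and U called with DMS, U558 and G1521 had the highest rates. U558, in the long span of 18S that held no open A or C, was mutated in 1.19%, 7.84% and 5.57% of reads with DMS and in 0.209%, 2.35% and 2.33% without (log2 change 1.74 ± 0.24 SE, adjusted p = 0.000322, edgeR). The groups overlapped, since replicate 1 was low in both treatments, and every pair rose. G1521 had 0.878%, 2.23% and 2.19% with DMS and 0.305%, 0.476% and 0.453% without, with no overlap (log2 change 2.03 ± 0.23 SE, adjusted p = 6.40e-05). The remaining calls, G53, G287, G643, G787 and G1638, had mean DMS rates from 0.290% to 0.912%, and of the 7 only G1638 had an open A or C as a direct neighbour.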
